A study of Drosophila melanogaster with 2 samples.

Results

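Weak promoter regions of a *her*-GFP chromatin immunoprecipitation in fly embryos are described here. They are regions that the authors listed in the pooled data but that stayed below their reproducibility threshold, with the point of highest signal, the summit, at a gene start. A region was taken when it overlapped no thresholded peak by 1 bp or more and its summit was no more than 500 bp from a transcription start site (TSS) of the annotation. Of the 30000 pooled regions, 25123 overlapped no thresholded peak, and 7853 of these (31.3%, exact 95% interval 30.7 to 31.8) were weak promoter regions. The other 17270 are called weak distal regions below. The thresholded list holds 3930 peaks, of which 2492 have a summit within 500 bp of a TSS and are called thresholded promoter peaks. The study precipitated chromatin of whole *Drosophila melanogaster* embryos, 0 to 24 hours old and of both sexes, from a transgenic line that carries *her* with GFP fused at its C-terminus. The antibody was raised against GFP, and both biological replicates (n = 2, in 1 group) came from this tagged line, so there is no contrast between conditions, and both were called against a shared control. Whole embryos mix all cell types and ages, the tag sits on an inserted copy of the gene, and no untagged embryos were analysed here.

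In this assay crosslinked chromatin is broken, the tagged protein is pulled down with the DNA near it, and the DNA is sequenced, so that positions near the protein gather more reads than the control. *her* (hermaphrodite) encodes a zinc-finger protein that acts in fly sex determination. The irreproducible discovery rate (IDR) ranks regions in each replicate and keeps those whose ranks agree, and what stays below it mixes weak sites with background. Fly promoters fall into broad kinds. Housekeeping promoters often carry the DRE, motif 1, motif 6 or motif 7 and lie in open chromatin in many cells, while many developmental promoters carry a TATA box, an initiator or GAGA repeats. The DRE is bound by the factor Dref, motif 1 by M1BP, and the core CGATA by the insulator protein BEAF-32.

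The bases up to 50 bp on each side of the summit, or less where noted, are printed for weak promoter regions with high pooled signal. They hold the sequences on which the comparison below turns. The bases are RefSeq sequence of Release 6 of the fly genome (dm6), written 5′ to 3′ on the strand of the nearest TSS. Capitals mark the matches on either strand to the listed sequences of at least 7 letters, to CGATA and to TATAAA. In *Smn*, *MICAL-like* and CG8668 the window touches an annotated UTR and only 30 bp around the match are shown. The *Smn* region, the strongest of all weak promoter regions, holds CGATA at chr3L:16581309-16581338 on the minus strand. *MICAL-like* (chr3L:13015345-13015374, minus strand) and *alph* (chr3R:29591724-29591824, plus strand) hold the DRE, TATCGATA, which contains CGATA. *alpha-Man-Ia* (chrX:10325974-10326074, minus strand) holds motif 1, CG8668 (chr2L:8126985-8127014, plus strand) and CG3040 (chrX:6973445-6973545, minus strand) motif 7, and CG11695 (chrX:11576719-11576819, plus strand) motif 6. CG18476 (chr3R:11678189-11678289, minus strand) holds the letters of the TATA box, TATAAA, on the strand opposite to that of the TSS. The match lies upstream of the summit, which is itself upstream of the TSS. Whether it acts as a TATA box was not tested. CG8668 had 82.3 in replicate 1 and no match in replicate 2. *alph* had 49.9 and 12.8 in replicates 1 and 2, the latter near that list's lowest signal of 12.1. *alpha-Man-Ia* had 20.3 and 65.6 and *Smn* 26.2 and 59.1. The values were closer at *MICAL-like* (49.1 and 46.8), CG3040 (47.0 and 40.1), CG11695 (46.8 and 36.3) and CG18476 (41.3 and 53.5).
Smn: tgaatgtacaccttttagCGATAgtttcat
MICAL-like: cacgaaacaacTATCGATAgctgctgacac
alph: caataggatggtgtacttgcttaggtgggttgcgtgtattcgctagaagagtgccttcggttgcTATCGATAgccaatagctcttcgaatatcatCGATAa
alpha-Man-Ia: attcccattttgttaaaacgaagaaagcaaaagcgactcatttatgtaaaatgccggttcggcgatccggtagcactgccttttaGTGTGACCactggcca
CG8668: atgttgctttaCATCACTAatgttgagcta
CG3040: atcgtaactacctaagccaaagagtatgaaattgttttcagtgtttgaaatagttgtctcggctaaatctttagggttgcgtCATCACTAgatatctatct
CG11695: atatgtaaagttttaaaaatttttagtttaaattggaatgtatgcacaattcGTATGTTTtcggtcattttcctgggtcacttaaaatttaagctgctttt
CG18476: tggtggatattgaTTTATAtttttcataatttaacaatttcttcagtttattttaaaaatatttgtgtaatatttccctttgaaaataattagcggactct

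Signal in the weak promoter regions lay just under that of the thresholded peaks at the upper end and faded into the end of the list. The authors' signal value, which has no stated scale, ran from 21.1 to 90.7 with a median of 39.5 and quartiles of 28.8 and 56.7. The median was 30.8 in weak distal regions and 138 in thresholded promoter peaks. At the threshold the strongest weak promoter regions had signals of 90.733, 90.710 and 90.707, and the weakest thresholded promoter peaks had 90.754, 90.772 and 90.783, so the list of peaks was divided by signal with no gap. At the other limit, the 195 weak promoter regions in the last 20 bp inside the TSS window had a median signal of 32.5, and the 191 regions in the first 20 bp outside it had 35.1. The authors' −log10 q-value ran from 0.38 to 4.13 with a median of 1.40. It was 2 or more in 3018 weak promoter regions (38.4%), and 1399 (17.8%) had 4.13, the value carried by all 2492 thresholded promoter peaks.

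Nearly all regions, 7837, were 404 bp wide, and neighbours often overlapped. Of the weak promoter regions 2434 (31.0%) overlapped another one, and merging left 6597 separate intervals with up to 4 regions in each. Only 162 thresholded promoter peaks (6.5%) overlapped another of their kind. Overlapping regions are not independent of each other, so each test below was repeated with only the strongest region of an overlapping set. A thresholded summit lay within 1 kb of 710 weak promoter regions (9.04%) and within 2 kb of 1615 (20.6%). Within 500 bp one was found for 18 regions. The rule keeps this count small, since regions that overlap a thresholded peak were left out.

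Weak promoter summits lay more often downstream of the TSS and less close to it than thresholded promoter summits. The median summit was 19 bp downstream of the nearest TSS, against 36 bp upstream for thresholded promoter peaks. Upstream summits made up 44.5% of weak promoter regions (3494 of 7853) and 67.3% of thresholded promoter peaks (1677 of 2492), an odds ratio of 0.390 (Fisher's exact test, two-sided, adjusted p = 3.30e-88). Summits within 100 bp of the TSS made up 43.2% and 64.0% (odds ratio 0.428, adjusted p = 1.51e-73, Fisher's exact test). Positions 200 to 500 bp downstream held 23.2% of the weak summits (1824) and 4.74% of the thresholded ones (118). All p-values here are two-sided and adjusted by the Benjamini-Hochberg method over 4 comparisons of position. They describe the regions of 1 experiment, since regions are not replicates. The comparisons of upstream and of close summits passed under every alternative run. The share of close weak summits ran from 28.9% with a TSS window of 1000 bp to 68.4% with one of 200 bp.

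**Figure D1:**
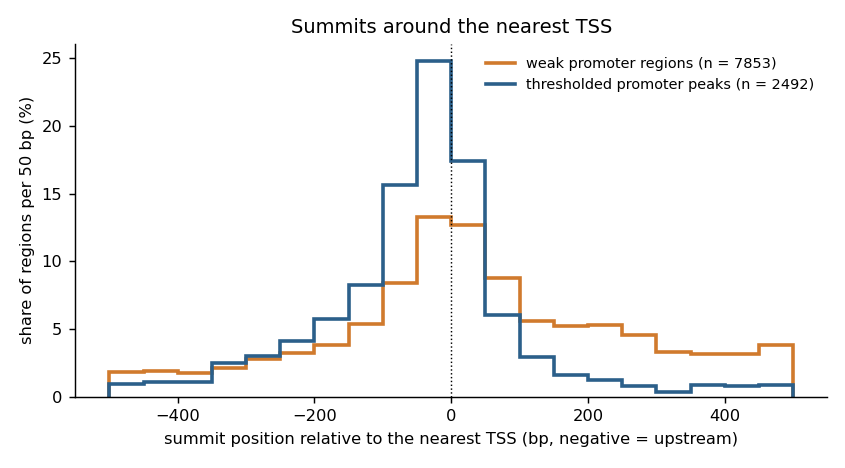
Distance of the summit to the nearest TSS in bp (x axis, negative values upstream) against the share of regions in each bin of 50 bp (y axis, percent), for 7853 weak promoter regions (orange) and 2492 thresholded promoter peaks (blue). The blue line peaks just upstream of the TSS (median 36 bp upstream) and the orange line is lower there and higher beyond 100 bp downstream, where 23.2% of weak summits fell between 200 and 500 bp.

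The annotation at the summits followed these positions. A 5' UTR held the summit of 2338 weak promoter regions (29.8%) and of 32.5% of thresholded promoter peaks. Coding exons held 1377 weak summits (17.5%, exact 95% interval 16.7 to 18.4) but only 34 thresholded promoter summits (1.36%, 0.947 to 1.90). Sequence between genes held 24.6% of the weak summits, 1932 regions, and 42.8% of the thresholded ones. Introns held 21.1% and 19.1%, exons of non-coding transcripts 5.51% and 3.61%, and 3' UTRs 1.5% and 0.682%. A UTR was counted before a coding exon where both were annotated, and these shares carry no test. GC content within 50 bp of the summit had a median of 46.5% in weak promoter regions, 46.5% in weak distal regions and 43.6% in thresholded promoter peaks. Its part in the sequence comparison below was not tested.

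Summits with TSSs on both strands nearby were less frequent among the weak regions. The measure takes TSSs of any gene and does not ask whether the genes point away from each other. TSSs on both strands lay within 500 bp of 1352 weak summits (17.2%) and of 785 thresholded promoter summits (31.5%), with an odds ratio of 0.452 (Fisher's exact test, adjusted p = 1.52e-49). The share among weak regions depends on the width of the TSS window and ran from 8.21% (200 bp) to 27.3% (1000 bp), with the difference passing in each alternative that gave a value. The X chromosome held 1438 weak promoter regions (18.3%) and 380 thresholded promoter peaks (15.2%, odds ratio 1.25, adjusted p = 4.55e-04, Fisher's exact test), beside 16.6% of all annotated TSS positions. The difference on X did not pass in 3 alternatives. It was 17.7% against 15.6% when only the strongest 1965 peaks counted as thresholded (adjusted p = 0.0741, Fisher's exact test), and 18.6% against 16.5% at promoters with TSSs on 1 strand only (adjusted p = 0.0697, Fisher's exact test), a choice made after seeing the data. It was 16.9% without replicate 1, that is, with the list of replicate 2 in place of the pooled one (adjusted p = 0.0581, Fisher's exact test). The embryos were of both sexes and so held fewer copies of X than of each autosome, and the part of this in the shares was not tested.

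With rising signal the weak promoter regions came closer to the thresholded ones in each of these measures. The members were divided by signal into 4 groups of 1964 or 1963 regions. From the weakest to the strongest group, the share of upstream summits was 39.1%, 41.7%, 45.4% and 51.7%. The share within 100 bp of the TSS was 29.8%, 35.9%, 47.6% and 59.4%, and the share with TSSs on both strands was 11.9%, 14.3%, 19.0% and 23.7%. The median summit moved from 62.5 bp downstream in the weakest group to 4 bp upstream in the strongest. Non-coding genes held the nearest TSS for 14.9% of the weakest group and for 6.78% of the strongest. The share on X was 19.5% in both weaker groups, 17.9% in the next and 16.5% in the strongest. These trends are a description, since signal also chose the regions.

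**Figure D2:**
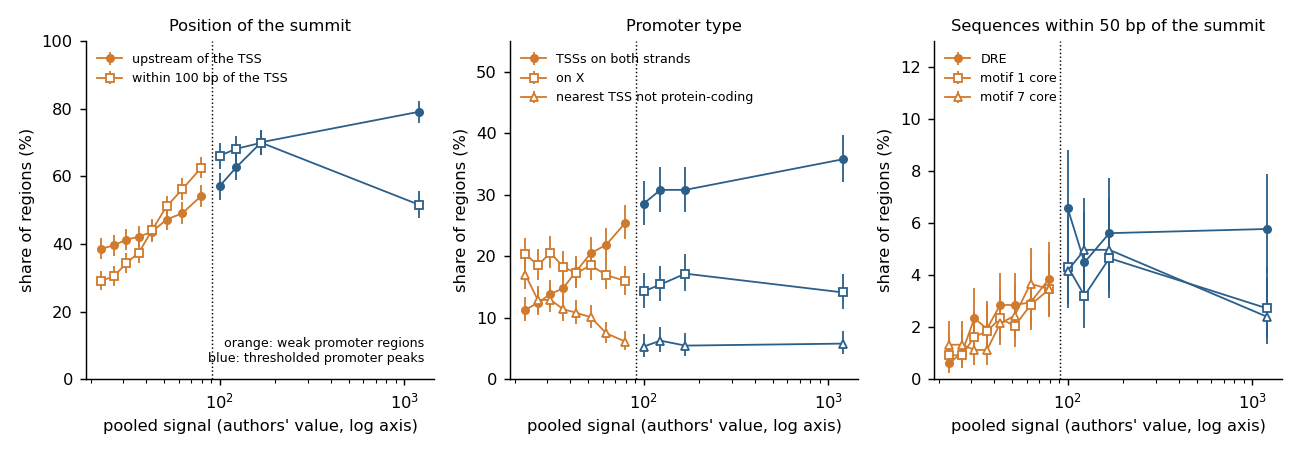
Authors' pooled signal (x axis, log scale) against the share of regions (y axis, percent) with a given property, for 8 bins of weak promoter regions (orange) and 4 bins of thresholded promoter peaks (blue), with exact 95% intervals. The dotted line marks the lowest signal of a thresholded peak. Upstream summits rose from 38.6% in the weakest bin to 54.3% in the strongest weak bin and 57.1% in the weakest thresholded bin.

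The replicates shared the stronger weak promoter regions and few of the weakest. A summit of replicate 1 lay within 200 bp of 80.2% of weak promoter summits and one of replicate 2 of 76.1%. Both replicates held 4688 regions (59.7%, 58.6 to 60.8), replicate 1 alone 1607, replicate 2 alone 1290 and neither 268. The share in both was 43.8% of weak distal regions and 99.6% of thresholded promoter peaks. Of those peaks 6 were matched in replicate 1 alone and 4 in replicate 2 alone. The threshold rests on agreement between these replicates, but it divided the pooled list by signal, as described above. Across the 4 groups of rising signal the share of weak promoter regions in both was 16.04%, 47.2%, 80.0% and 95.6%. The pooled signal was made from both replicates, so part of this rise was fixed in advance. How large that part is was not tested. Each replicate list also ends at 30000 regions, with lowest signals of 12.5 and 12.1, so a region absent from a list may lie below its end.

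At equal signal, no difference in how often both replicates held weak promoter and weak distal regions passed the main test, and the direction of the difference depended on the matching and on the lists used. Over 10 strata of pooled signal the common odds ratio was 0.973 (two-sided Cochran-Mantel-Haenszel chi-square test over n = 25123 regions, 95% interval 0.905 to 1.05, p = 0.474). The strata did not run in 1 direction: promoter regions had the higher share in strata 1 to 4, counted from the weakest, and distal regions in strata 5 to 10. In stratum 2 the shares were 14.4% (11.5 to 17.7) for promoter and 8.61% (7.42 to 9.94) for distal regions, and in stratum 9 they were 90.5% (88.7 to 92.2) and 93.9% (92.5 to 95.1). The common odds ratio averages over these, and whether it differed between strata was not tested. Support rose from 8.12% in the weakest stratum to 96.5% in the strongest for promoter regions and from 5.18% to 97.2% for distal regions. Part of this rise was fixed in advance, since the pooled signal was made from both replicates. Without strata the odds ratio was 1.90 (Fisher's exact test, p = 1.40e-121), as promoter regions made up 18.6% of the weakest stratum and 54.2% of the strongest. The odds ratio over strata was 0.832 when summits had to match within 100 bp (chi-square test over n = 25123 regions, p = 4.58e-07) and 1.59 for a match within 500 bp. With the strongest 15000 regions of each replicate it was 1.15 (chi-square test, p = 0.00494), and with the strongest 15000 pooled regions it was 0.822 (chi-square test, p = 9.13e-04).

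**Figure D3:**
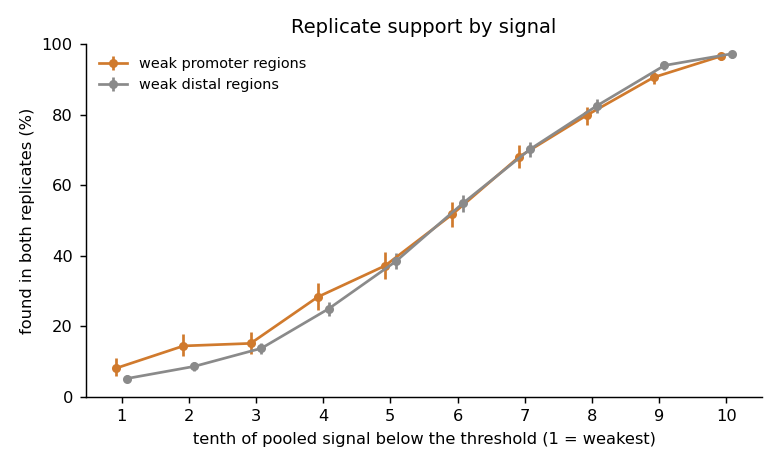
Stratum of pooled signal among all regions below the threshold (x axis, 1 is the weakest of 10) against the share of regions found in both replicates (y axis, percent), for weak promoter regions (orange) and weak distal regions (grey), with exact 95% intervals. Both lines rise from under 10% to over 95%, with the orange points above the grey ones in strata 1 to 4 and below them in strata 5 to 10.

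Signals of the replicates differed widely for single regions. Over the 4688 regions in both, replicate 1 gave signals from 12.5 to 164 with a median of 27.8, and replicate 2 gave 12.1 to 79.6 with a median of 24.0. The values of 84.3% of them lay within 2-fold of each other, against 89.8% of the weak distal regions and 93.2% of the thresholded promoter peaks found in both. Across these weak regions Spearman's rho was 0.284 and Pearson's r was 0.230, over the narrow range of signal that the threshold leaves. In weak distal regions, which the same threshold limits, rho was 0.353 and r was 0.365. Regions share libraries and the control, so the correlations are a description. The *Smn* region, with a pooled signal of 90.7, had 26.2 in replicate 1 and 59.1 in replicate 2. The *ash2* region, also 90.7 in the pooled list, had the opposite order with 65.5 and 27.8. Values of the 3 lists have no common stated scale.

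Sequences of housekeeping promoters, the DRE and motifs 1, 6 and 7, were found in weak promoter regions less often than in thresholded promoter peaks. The DRE and motifs 1 and 7 had higher shares in weak promoter regions than in weak distal regions. Motif 6 had 3.03% in weak promoter regions (exact interval 2.66 to 3.43), and its 2.71% in weak distal regions lies inside that interval. Differences in sequence between weak promoter and weak distal regions were not tested. The 20 listed sequences were searched for on either strand, up to 50 bp from the summit. Of these 7 were less frequent in the weak regions and 0 more frequent (Fisher's exact test, two-sided, Benjamini-Hochberg over the 20), and 0 were more frequent at an unadjusted p under 0.05. The DRE (TATCGATA), printed above for *MICAL-like* and *alph*, was in 181 weak promoter regions (2.30%) and in 5.62% of thresholded promoter peaks, with an odds ratio of 0.396 (adjusted p = 7.31e-14, Fisher's exact test). It was in 0.220% of weak distal regions and in 5.21% of windows of the same length that end at the 19248 TSS positions of protein-coding genes. CGATA, which lies inside the DRE, was in 1489 weak promoter regions (19.0%), 26.6% of thresholded promoter peaks (adjusted p = 2.93e-14, Fisher's exact test), 10.7% of weak distal regions and 26.0% of TSS windows.

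Motif 7 (CATCNCTA), as in CG3040, was in 2.08% of weak promoter regions, 4.13% of thresholded promoter peaks (adjusted p = 5.54e-07, Fisher's exact test), 0.620% of weak distal regions and 2.35% of TSS windows. Motif 1 (GGTCACAC), as in *alpha-Man-Ia*, was in 2.00% and 3.73% (adjusted p = 1.44e-05, Fisher's exact test), with 0.203% in weak distal regions and 2.63% in TSS windows. Motif 6 (GTATNTTT) was in 3.03% and 4.53% and the TATA box (TATAAA) in 7.21% and 9.39% (adjusted p = 0.00161 for each, Fisher's exact test). In weak distal regions these stood at 2.71% and 7.46%, and in TSS windows at 5.96% and 18.2%. TTATAA was in 2.85% and 3.85% (adjusted p = 0.0398, Fisher's exact test) and in 3.44% of weak distal regions. Its call was lost in 6 alternatives, among them leaving out replicate 1 (odds ratio 0.838, adjusted p = 0.293, Fisher's exact test). For the TATA box and TTATAA the weak promoter regions thus had the lowest share of the classes compared. As one example of the rest, the E-box CAGCTG was in 8.02% and 8.07% (odds ratio 0.994, adjusted p = 0.982, Fisher's exact test).

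The distance to the TSS bears on these shares. The DRE was in 3.81% of the weak promoter regions with upstream summits and in 1.10% of those downstream, and the TATA box in 9.90% and 5.05%. When only summits within 100 bp of the TSS were compared in both classes, a choice made after seeing the data, 3 of the 7 sequences still passed: the DRE (odds ratio 0.572), motif 7 (0.693) and CGATA (0.731). In that comparison the TATA box had an odds ratio of 1.22 (adjusted p = 0.174, Fisher's exact test), so its direction was not kept, and the initiator TCAGTT (1.43) and GATAAG (1.46) passed as more frequent in weak regions. Other alternatives also gave sequences that passed as more frequent in weak regions. With the strongest 1965 peaks these were GAGAGAG (1.60), CACACACA (2.04) and the initiator (1.41). With windows of 100 bp on each side they were the Zelda sequence CAGGTAG (2.03) and the Pho sequence GCCAT (1.18), with a TSS window of 1000 bp Pho (1.15), and on the strand of the TSS alone CCGGAA (1.59). Within the weak regions, those with the DRE had a median signal of 49.6 and those without it 39.2. For motif 7 these medians were 50.01 and 39.2, and for motif 1 they were 47.97 and 39.3.

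**Figure D4:**
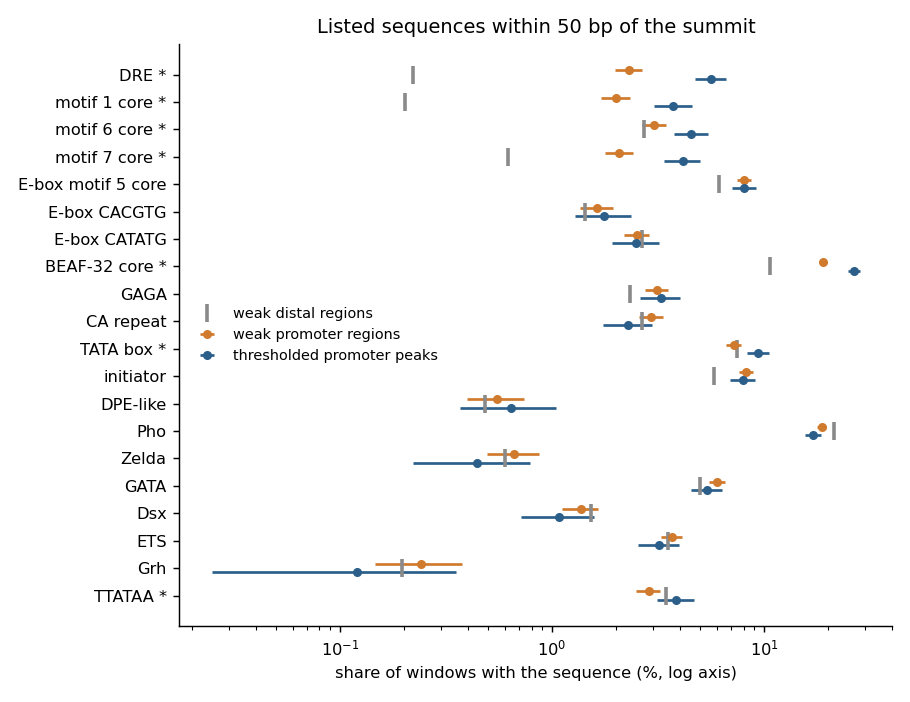
Share of windows of 50 bp on each side of the summit that hold each of 20 listed sequences (x axis, percent, log scale) in weak promoter regions (orange) and thresholded promoter peaks (blue), with exact 95% intervals, and in weak distal regions (grey bars). Stars mark the 7 that differed between the first 2 classes, among them the DRE at 2.30% and 5.62%.

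The weak promoter regions lay at many genes, mostly with 1 region each. The nearest TSSs belonged to 5739 genes, of which 4161 had 1 region, 1242 had 2 and 336 had 3 or more. Of 13945 protein-coding genes, 4978 (35.7%) had a weak promoter region within 500 bp of a TSS and no thresholded summit there, and these are called weak-only genes. A thresholded summit lay at 2851 genes (20.4%), of which 711 also had a weak region, and 6116 had neither. Among the 11094 genes with no thresholded summit, 44.9% were thus weak-only. Their strongest region had a median signal of 48.2 and was found in both replicates for 3496 genes (70.2%). For 928 of them (18.6%) that region lay closest to the TSS of another gene. *her* had a thresholded summit and no weak region.

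The 10 strongest weak promoter regions found in both replicates had pooled signals between 90.6 and 90.7. They lay at *Smn* (survival motor neuron, which assembles small nuclear ribonucleoproteins), *ash2* (a subunit of histone methyltransferase complexes), CG18476, CG46307, *spoon* (an A-kinase anchor protein), *Nup62* (a nuclear pore protein), CG1888, CG46440, *Sirup* and *Hipk* (a protein kinase). *spoon*, CG1888 and *Hipk* also had a thresholded summit at a TSS. The *Smn* region spans 16581157 to 16581560 on 3L with its summit 83 bp upstream of the TSS, the *ash2* region 24649893 to 24650296 on 3R with its summit 30 bp upstream. The *Nup62* region (2R, 16344243 to 16344646) had signals of 44.2 in replicate 1 and 49.0 in replicate 2. Its summit also lay within the gene in a 5' UTR, 39 bp upstream of a TSS inside the gene. The summits at *Smn*, *ash2*, CG46307 and *Nup62* had TSSs on both strands within 500 bp.

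Because *her* acts in sex determination, the genes of that pathway were taken first. Of 19 listed genes 8 had a thresholded summit (42.1%, beside 20.4% of all protein-coding genes). Another 8 were weak-only (42.1%, beside 35.7%), with a median signal of 38.2. The strongest was *tra2*, a splicing factor that acts with *tra* on *dsx* RNA, with 84.3 in the pooled list, 42.5 in replicate 1 and 43.8 in replicate 2. Its region spans 14604114 to 14604517 on 2R with the summit in a 5' UTR, 21 bp downstream of the TSS. *vir*, a component of the RNA methylation machinery that also acts on *Sxl* splicing, had 72.6 (43.5 and 29.0 in replicates 1 and 2), but its summit lay 357 bp upstream and closest to the TSS of *Ice1*. *dpn*, an autosomal repressor of *Sxl*, had 52.4 (22.6 and 30.7), 103 bp upstream. *fru*, which acts in male behaviour, had 39.6 (23.4 and 20.6) at a TSS in the gene's body, with a thresholded summit 603 bp from its own summit. *nito*, an RNA-binding protein that acts on *Sxl* splicing, had 36.8 (16.2 and 16.3) at a region closest to *Septin5*.

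Weakest in this list were the X-signal genes and *dsx* itself. *run* had 29.5 and a match in replicate 1 alone (16.3), and *sisA*, another X-signal element, had 27.9 and a match in replicate 2 alone (17.6). *dsx*, the switch gene at the end of the pathway, had 22.4, close to the end of the pooled list at 21.1, and no match in either replicate. Its summit lay in a 5' UTR, 415 bp downstream of the TSS (3R, 7966993). *tra*, *sc* and *upd1* had neither a weak region nor a thresholded summit, and neither did any of the 3 listed yolk protein genes (*Yp1*, *Yp2*, *Yp3*), which *dsx* controls in adult flies. The 5 genes *tra2*, *vir*, *dpn*, *fru* and *nito* were thus those with a region in both replicates.

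All 9 listed genes of dosage compensation, the process that raises transcription of X in males, were weak-only, beside 35.7% of protein-coding genes and, for the RNA genes among them, 23.2% of non-coding RNA genes. Their median signal was 54.98, and 7 of the 9 had a region found in both replicates. The RNA gene *lncRNA:roX1*, part of the male-specific lethal complex, had 81.7 in the pooled list, 46.6 in replicate 1 and 35.3 in replicate 2. *msl-3* had 78.0 (48.7 and 28.7) with its summit in a coding exon, *msl-1* had 77.6 (45.2 and 31.8) 55 bp upstream of the TSS, and *msl-2*, the subunit made in males, had 43.9 (29.3 and 12.99) in its 5' UTR. These are protein subunits of that complex. *JIL-1*, a histone kinase, had 59.4 (31.6 and 28.1) in a region from 11093164 to 11093296 on 3L, with a thresholded summit 748 bp away. *lncRNA:roX2* had 54.98 (22.2 and 31.4).

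The remaining members of the dosage compensation list were weaker or seen in 1 replicate. The helicase gene *mle* had 39.2 in the pooled list and a match in replicate 2 alone (29.3). *mof*, the histone acetyltransferase, had 31.7 and a match in replicate 2 alone (18.5), in a coding exon. *Clamp*, a zinc-finger protein that binds GA repeats, had 29.7 (13.1 and 24.6). The nearest thresholded summit was 1151 bp from the weak summit at *lncRNA:roX1* and 1346 bp from that at *lncRNA:roX2*. With a window of 1000 bp around the TSS 7 of the 9 were weak-only, since *lncRNA:roX1* and *JIL-1* then had a thresholded summit. The list is short and shares *Clamp* with the insulator list.

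In most lists of general cell functions, as over all protein-coding genes, weak and thresholded summits together covered more than the genes with neither. Of all 13945 protein-coding genes 35.7% were weak-only, 20.4% had a thresholded summit and 6116 genes had neither. The proportions differed between the lists. Cytoplasmic ribosomal protein genes had thresholded summits at 64 of 85 (75.3%) and were weak-only at 13 (15.3%), with a median signal of 63.9. The weak ones included *RpL10* (82.6, 51.0 in replicate 1 and 30.9 in replicate 2) and *RpS9* (79.7, 44.4 and 39.9). Mitochondrial ribosomal protein genes had the reverse order, with 19 of 73 thresholded and 45 weak-only (61.6%, median 47.0). Their strongest were *mRpL52* (85.7, 22.4 and 63.5), *mRpL2* (79.6, 34.0 and 48.2) and *mRpL1* (77.6, 18.6 and 55.3), and each of these 3 had the higher value in replicate 2. The *mRpL52* and *mRpL2* regions lay closest to the TSSs of CG12107 and *FoxK*.

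Genes of mitochondrial respiration were weak-only at 43 of 84 (51.2%), beside 35.7% of all protein-coding genes. The weak-only shares of all listed genes given below for proteasome and translation factor genes are near that background. Of the genes with no thresholded summit, 50% of the proteasome and 60.6% of the translation factor genes were weak-only. Over all protein-coding genes this share was 44.9%. The proteasome list also holds genes named as variants of subunits, such as *Prosbeta4R1* and *Rpt4R*, which had neither kind of summit. The respiration genes were led by the complex I gene *ND-B18* (90.5, 41.7 in replicate 1 and 49.2 in replicate 2). *SdhC* of complex II had 87.6 (46.1 and 42.3) in a region closest to *Tctp*, and *ND-B14.5A* had 86.8 (47.1 and 50.1). Proteasome genes were weak-only at 18 of 48 (37.5%), with 12 thresholded, led by *Rpt6* (82.9, 34.6 and 44.9), an ATPase of the regulatory particle. Translation factors were weak-only at 20 of 52 (38.5%), led by *eIF3m* (89.0, 51.9 and 39.5), and aminoacyl-tRNA synthetases at 15 of 33 (45.5%), led by *LeuRS-m* (82.1, 32.4 and 52.8), the mitochondrial leucyl enzyme. Membrane trafficking genes (named *Rab*, *Vps*, *Sec* or *Snx*) were weak-only at 42 of 84 (50%), led by *Rab3-GAP* (87.6, 57.0 and 26.1). RNA polymerase II subunits were weak-only at 5 of 13, 2 of them in both replicates. *Polr2J* had 89.3 (50.5 and 41.0 in replicates 1 and 2) in a region closest to CG15141, and *Polr2C* had 88.1 (45.0 and 44.2). The largest subunit, *Polr2A*, had 65.2 with no match in replicate 1 and 30.5 in replicate 2, at 313 bp downstream of the TSS. Nuclear pore genes were weak-only at 11 of 21 (52.4%), and after *Nup62* came *Nup44A* (72.5, 39.0 and 35.6), closest to *ACC*, and *Nup358* (63.7, 17.8 and 44.7). Sm and Lsm genes, which act in RNA processing, were weak-only at 6 of 9, all 6 in both replicates, led by *LSm1* (74.5, 34.0 and 37.0), closest to *Xpd*. Heat shock genes had 5 weak-only of 19, led by *Hsp22* (61.7, 27.3 and 33.5), with 10 that had neither, among them all 6 listed *Hsp70* copies.

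The coactivator genes of Mediator and TFIID were weak-only at 25 of 40 (62.5%) and thresholded at 9, with a median signal of 58.0 in the weak ones. Over all protein-coding genes 35.7% were weak-only and 20.4% thresholded. *MED23* had 84.4 in the pooled list (46.1 in replicate 1 and 39.98 in replicate 2), *MED17* had 81.8 (41.9 and 43.1) and *Taf5* had 70.6 (30.9 and 43.7). The neighbours *Taf10* and *Taf10b* share 1 region with a signal of 63.2, and *Taf6* shares one of 63.7 with *ash1*. Genes named *Mcm*, *Orc* or *Cdc* were weak-only at 19 of 24 (79.2%, median 61.7), 17 of them in both replicates. The list was built from names and holds genes that do not act at replication origins, such as *Cdc42*, a small GTPase (61.7), and *Cdc27*, of the anaphase-promoting complex (77.9). Members that do act there were *Mcm5* of the replicative helicase (88.5, 41.0 and 55.7), *Orc4* of the origin recognition complex (87.8, 43.8 and 41.5) and *Cdc6*, which loads the helicase (80.9, 49.4 and 35.7). The *Mcm5* region lay closest to the TSS of *Art1*.

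**Figure D5:**
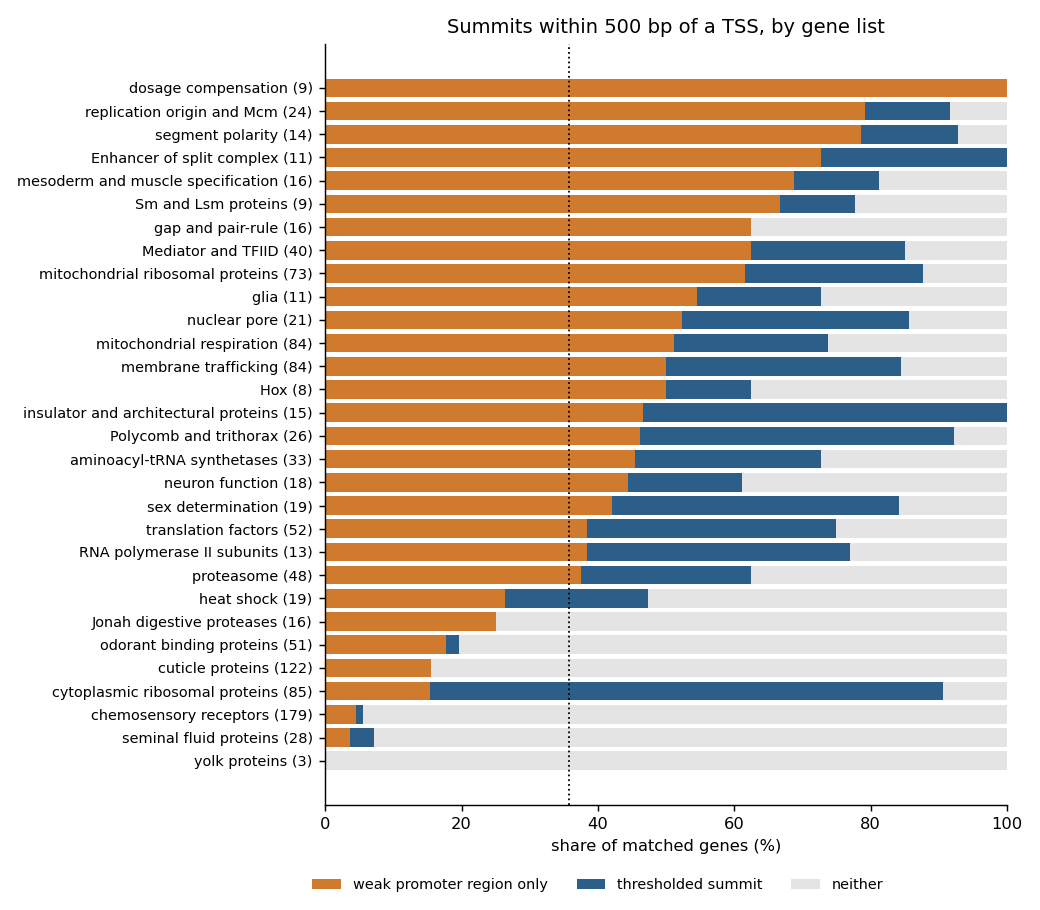
Share of the matched genes of 30 lists (x axis, percent, list size in brackets) with a weak promoter region only (orange), with a thresholded summit (blue) or with neither (grey). The dotted line marks the 35.7% of all protein-coding genes that were weak-only. Cytoplasmic ribosomal protein genes are mostly blue, dosage compensation genes all orange, and chemosensory receptor and cuticle genes mostly grey.

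Genes for chromatin proteins had both kinds of summit. Beside 20.4% and 35.7% of all protein-coding genes, Polycomb and trithorax genes were thresholded at 12 of 26 and weak-only at 12 (46.2%, median 66.6). Besides *ash2*, the weak ones included *ph-d* (90.0, 32.7 in replicate 1 and 56.7 in replicate 2), one of the tandem *polyhomeotic* genes, and *Utx*, a histone demethylase (81.1, 64.8 and 23.2). Insulator and architectural protein genes were thresholded at 8 of 15 and weak-only at 7, so none lacked a summit. Among the weak ones, the motif 1 factor *M1BP* had 75.03 (43.8 and 33.2) in a region closest to CG8202, and *pzg*, a partner of Dref, had 72.6 (37.8 and 39.2) at 481 bp downstream of the TSS, in a coding exon. *mod(mdg4)* had 66.8 (39.6 and 26.5), with a thresholded summit 845 bp away.

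Segmentation genes, which pattern the early embryo, were mainly weak-only. Over all protein-coding genes 35.7% were weak-only and 20.4% had a thresholded summit. None of 16 gap and pair-rule genes had a thresholded summit, while 10 (62.5%) had a weak region, with a median of 48.2 and 6 of them in both replicates. The strongest were *opa* (78.1, 54.4 in replicate 1 and 21.8 in replicate 2), *hry* (75.5, 51.1 and 33.6) and *Kr* (63.6, 31.5 and 30.9). *eve*, a pair-rule gene, had 55.8, and *ftz*, *prd*, *hb*, *gt*, *knrl* and *tll* had neither. Segment polarity genes were weak-only at 11 of 14 (78.6%), with a median signal of 75.01 and 10 of 11 in both replicates. *ci*, the transcription factor of Hedgehog signalling, had 89.8 (67.6 and 24.2) on chromosome 4, 57 bp upstream of the TSS. The Wnt ligand gene *wg* had 83.7 (37.2 and 41.2) at 198 bp upstream, and *arm*, which encodes beta-catenin, had 82.0 (36.9 and 48.2).

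The Enhancer of split complex, a cluster of Notch targets, was weak-only at 8 of 11 genes with a median of 30.6, and 3 of the 8 regions were found in both replicates. Over all protein-coding genes 35.7% were weak-only, and the lists in this paragraph are short. *E(spl)m2-BFM* had 61.7 (33.6 and 33.1) and *E(spl)m8-HLH* had 37.6 (26.9 and 18.4). With the strongest 15000 pooled regions only 2 of the 11 genes were weak-only. Hox genes were weak-only at 4 of 8, all 4 in both replicates, with *Scr* at 52.0 (26.6 and 25.3), *Ubx* at 41.9 (28.3 and 14.6), *lab* at 41.4 (23.1 and 15.3) and *abd-A* at 27.8. Mesoderm and muscle specification genes were weak-only at 11 of 16, with a median of 49.9, led by the cell adhesion genes of myoblast fusion *sns* (77.8, 50.4 and 25.8) and *kirre* (66.8, 32.3 and 34.6). The mesoderm regulators *twi* and *sna* had 38.1 and 48.4.

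Neuron genes were weak-only at 8 of 18 and thresholded at 3, beside 35.7% and 20.4% of all protein-coding genes. The weak ones had a median signal of 36.1, led by the synaptic vesicle gene *Syt1* (70.3, 40.6 in replicate 1 and 28.5 in replicate 2). Glial genes were weak-only at 6 of 11, with a median of 60.8. Among them were *sli* (71.7, 42.8 and 32.6), a guidance cue of midline glia, and *wrapper* (64.0, 40.4 and 24.3).

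In the lists of cuticle, chemosensory, odorant binding, Jonah protease and seminal fluid genes most members had no summit of either kind. Of all 13945 protein-coding genes 6116 had neither and 35.7% were weak-only. Cuticle protein genes were weak-only at 19 of 122 (15.6%, median 32.7) and thresholded at none. Their strongest region, at *Lcp9* (77.3, 55.5 in replicate 1 and 26.7 in replicate 2), lay 458 bp upstream and closest to CG3594. Chemosensory receptor genes were weak-only at 8 of 179 (4.47%, median 28.1) and thresholded at 2. *Gr5a*, a sugar receptor, had 40.9 (26.9 and 18.4). Odorant binding protein genes were weak-only at 9 of 51 and Jonah protease genes at 4 of 16, with *Jon65Aiii* at 29.2 and in neither replicate. The only weak-only gene of 28 seminal fluid protein genes was *Sfp24F* (54.4, 27.4 and 22.0), with its summit 496 bp upstream and in a coding exon of CG15432. With a window of 200 bp around the TSS the weak-only counts were 4 for cuticle and 3 for chemosensory genes.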

How the data were processed

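Chromatin immunoprecipitation with an antibody against GFP was sequenced from 2 biological replicates of *her*-GFP embryos, with fragments of 200 to 800 bp per the labels. Per the deposited notes, the authors made relaxed lists of 30000 regions per replicate and on pooled data, each together with a control alignment, and a list that passed the IDR threshold. Caller, aligner and read depths were not given in the sources used here. Each region carries the authors' signal value, of unstated scale, and the deposited −log10 q-value. dm3 lists were not used. TSSs came from Ensembl release 115, sequence from the RefSeq Release 6 genome (dm6). Coordinates are 1-based.

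Regions were matched to replicate summits within 200 bp. Tests were Fisher's exact and Cochran-Mantel-Haenszel over 10 signal strata, with a threshold of 0.05 after Benjamini-Hochberg adjustment, checked on simulated data (scipy 1.17.1, statsmodels 0.14.6). Intervals are exact (Clopper-Pearson, 95%) over regions and cover counting error only, not depth. Gene lists are described by counts with no test, and 2 listed symbols matched no gene. The members, lists and sequences were chosen with earlier results of these data known. Named were *her*, all weak-only genes of sex determination, dosage compensation and yolk lists, the 10 strongest regions' genes and up to 3 per other list. The rule for printed sequences chose *Smn*, CG18476 and CG11695. The other printed regions and other genes were chosen after their values were seen. Overlapping regions, and promoters shared by neighbouring genes, count for each. The 18 planned and 4 added alternatives are below. A few named items are not reported here.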

Additional observations from a re-analysis of the deposited data

How the results depend on the processing

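Of 109 recomputed main values, 89 kept their direction and call or, for counts and shares, stayed near the reported value. The number of weak promoter regions was 4959 for a TSS window of 200 bp, 4414 in the strongest 15000 pooled regions and, added after seeing the data, 4688 when found in both replicates. The number of differing sequences was 4 with the window of 200 bp. The share near a thresholded summit was 8.19% for a TSS window of 200 bp and 12.5% for 1000 bp. It was 14.1% when only regions with the summit inside a peak were removed, 4.57% with the strongest 1965 peaks and 9.83% with the strongest 15000 regions. It was 9.72% with only the strongest of overlapping regions (added), 0.229% for summits within 500 bp and 20.6% within 2 kb. The value for 500 bp is kept small by the rule that leaves out overlapping regions. The share on X, with the strongest 1965 peaks (17.7%) and at promoters with TSSs on 1 strand (18.6%, added), no longer passed, and leaving out a replicate gave 16.9% to 17.8%. The difference in replicate support from weak distal regions passed as lower with the strongest 15000 regions (85.2% of weak promoter regions in both) and with a match of 100 bp (45.3%). It turned to higher with a match of 500 bp (75.6%), with the strongest 15000 regions of each replicate (31.9%) and without strata (59.7%). Among sequences, the odds ratio of GAGA turned to 1.60 with the strongest 1965 peaks (adjusted p = 0.0438, Fisher's exact test) and that of the TATA box to 1.22 with summits within 100 bp in both classes. Apart from the strata and the smaller lists, the cause was not tested. Gene list counts stayed within 1.5 times in 319 of 360 recomputations, and 80 to 103 of the 104 named genes were weak-only, with 80 for the window of 200 bp. No paired analysis was possible because there is 1 group. Replicate support cannot be computed with a replicate left out. Read depth is unknown, so absence from a list is not absence of binding.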

Other observations

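Genes for non-coding RNA also had weak promoter regions. Beside them, 35.7% of protein-coding genes were weak-only and 20.4% had a thresholded summit. Of 290 tRNA genes, 145 (50%) were weak-only with a median signal of 41.9, and 25 (8.62%) had a thresholded summit. tRNA genes lie in clusters, so 1 region can count for several, and the nearest TSS was that of a tRNA gene for 114 weak promoter regions. The strongest of these lay at tRNA:Asp-GTC-1-6, with a pooled signal of 84.4 and signals of 49.9 in replicate 1 and 36.0 in replicate 2. Of 269 snoRNA genes 78 were weak-only (29.0%, median 33.1), and many lie inside host genes whose promoters are close. Of 3261 other non-coding RNA genes 757 (23.2%) and of 32 snRNA genes 6 (18.8%) were weak-only.

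Chromosome 4, which is mostly heterochromatic, held 82 weak promoter regions (1.04%, exact 95% interval 0.831 to 1.29) and 8 thresholded promoter peaks (0.321%, 0.139 to 0.632). It holds 0.776% of all TSS positions. *ci*, described above, is on this chromosome. This difference was noticed in the data and carries no test.

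Some genes with many TSSs had weak promoter regions at several of them. *mtd* had 11 with 11 annotated TSS positions, with signals from 21.8 to 63.9, and *Svil* had 10 with 16 positions. *sd*, the transcription factor of the Hippo pathway, had 9 on X with signals from 25.7 to 65.2, and *Mob2* had 7 with 4 positions and signals up to 86.7. Several of the *sd* and *Mob2* regions overlap each other.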
